A study of Mus musculus with 29 samples.

Results

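Calcium buffers, a calcium pump, the efferent receptor and prestin are proteins of mature cochlear and vestibular hair cells, and the 8 mouse genes that encode them were examined here for binding of 3 transcription factors. The genes were Calb1, Calb2, Pvalb, Ocm, Atp2b2, Chrna9, Chrna10 and Slc26a5. They were taken by name from the GENCODE annotation of mm9, and every kept summit in the body of a gene or within 50 kb of it was counted. A summit is the position of highest ChIP signal in a peak. The 8 windows covered 1.28 Mb and held 98 of 175162 kept summits of 9 peak lists, from 8 of 37273 annotated genes.

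The data were ChIP-seq peak lists from embryoid bodies, aggregates of differentiating mouse embryonic stem cells. All lines derived from the A2loxCre parental line and carried a doxycycline-inducible cassette that ended in the fluorescent marker Venus. The embryoid bodies received 2 µg/ml doxycycline for 48 h and were fixed at day 6. Line iAtoh1 expressed Atoh1, iPou4f3 expressed Pou4f3, iG+A expressed Gfi1 and Atoh1, iG+P expressed Gfi1 and Pou4f3, iP+A expressed Pou4f3 and Atoh1, and iGPA expressed all 3. Atoh1 carried a FLAG tag and was precipitated in 4 lines, Pou4f3 carried a MYC tag and was precipitated in 4 lines, and for Gfi1, in iGPA, the antibody was raised against the factor itself. The 9 lists came from 17 ChIP libraries and 12 input libraries, 2 per ChIP group except for Gfi1, with 1. The bodies were not sorted, so cells that did not express the cassette were included, and each transgene was driven from a cassette and not from its own gene. The lists were called on merged libraries. There was therefore no spread between replicates, no test of a difference between lines was possible, and every interval below covers counting error only. No RNA was used, so the results concern binding and not expression.

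Hair cells convert mechanical deflection into calcium and potassium currents. Mobile buffers and a membrane pump return calcium to its resting level, while cholinergic efferent fibres inhibit the cell through a calcium-permeable nicotinic receptor coupled to potassium channels. Calbindin (Calb1), calretinin (Calb2), parvalbumin (Pvalb) and oncomodulin (Ocm) are EF-hand buffers, and oncomodulin is known for its abundance in outer hair cells. Atp2b2 encodes PMCA2, the plasma membrane calcium pump of the hair bundle. Chrna9 and Chrna10 encode the α9 and α10 subunits of the efferent receptor, and Slc26a5 encodes prestin, the motor protein of outer hair cells. Atoh1 is a bHLH factor that binds E-boxes, Pou4f3 is a POU-homeodomain factor that binds AT-rich sites, and Gfi1 is a zinc-finger factor usually described as a repressor.

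Summits whose 300 bp windows overlapped were joined into 1 site, which gave 42 sites in the 8 windows and 78408 in the genome. Sequences are shown for the sites on which the results turn. They were read from mm9, on the + strand, as up to 150 bp around the strongest summit, without annotated UTR bases. Capitals mark the E-box core, searched as CAGCTG, as CAGATG and also as CATATG, or the Pou4f pattern (ATAATTAAT with up to 1 mismatch), each on both strands. The Gfi1 pattern (AATCACAGC, also searched as AATCACTGC) was in none of them. The first 3 sequences are of sites held by the most lists for their gene, with ties settled by fold enrichment. They also carried both Atoh1 and Pou4f3 in iGPA. At each of them Atoh1 was found in the lines that also expressed Pou4f3 and in no other line. This was so too at sites near Atp2b2 that are not shown.
Calb2 downstream site, chr8:112659602-112659751: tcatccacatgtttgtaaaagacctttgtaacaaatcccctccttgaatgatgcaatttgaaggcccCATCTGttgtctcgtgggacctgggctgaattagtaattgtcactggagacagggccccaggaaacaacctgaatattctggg
Ocm upstream site, chr5:144793383-144793532: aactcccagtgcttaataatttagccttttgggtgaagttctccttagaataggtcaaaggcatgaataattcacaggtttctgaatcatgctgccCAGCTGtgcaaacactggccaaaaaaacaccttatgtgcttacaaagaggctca
Pvalb distal site, chr15:78070902-78071051: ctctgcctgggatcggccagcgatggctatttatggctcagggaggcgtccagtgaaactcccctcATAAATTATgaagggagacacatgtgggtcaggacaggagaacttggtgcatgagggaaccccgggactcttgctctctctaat

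The next 3 lie in the window of Atp2b2. The first is just upstream of the gene's start and carried Pou4f3 in every line tested, and the other 2 carried both Atoh1 and Pou4f3 in iGPA. The first was chosen after its values were seen.
Atp2b2 start site, chr6:113992620-113992769: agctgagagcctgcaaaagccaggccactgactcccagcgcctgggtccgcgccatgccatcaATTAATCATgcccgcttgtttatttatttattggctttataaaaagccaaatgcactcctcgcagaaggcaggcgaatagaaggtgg
Atp2b2 intron site, chr6:113745439-113745588: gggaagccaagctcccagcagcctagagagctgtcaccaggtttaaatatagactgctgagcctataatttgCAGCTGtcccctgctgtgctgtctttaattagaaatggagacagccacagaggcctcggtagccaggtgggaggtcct
Sec13 start site, chr6:113690738-113690821: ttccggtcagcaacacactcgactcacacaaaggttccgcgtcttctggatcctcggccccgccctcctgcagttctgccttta

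The last 5 are an Atoh1 site inside Pvalb that was chosen after its values were seen, the sites held by the most lists in the windows of Chrna10 and Slc26a5, and, for Calb1 and Chrna9, whose sites were each in 1 list, the site with the highest fold enrichment.
Pvalb intron site, chr15:78035820-78035969: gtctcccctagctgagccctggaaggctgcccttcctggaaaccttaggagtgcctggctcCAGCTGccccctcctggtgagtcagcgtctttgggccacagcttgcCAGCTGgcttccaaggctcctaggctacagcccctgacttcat
Calb1 downstream site, chr4:15840413-15840562: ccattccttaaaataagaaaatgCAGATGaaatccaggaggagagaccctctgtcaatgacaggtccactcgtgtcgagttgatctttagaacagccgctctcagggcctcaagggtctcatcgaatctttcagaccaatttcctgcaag
Chrna9 upstream site, chr5:66288730-66288879: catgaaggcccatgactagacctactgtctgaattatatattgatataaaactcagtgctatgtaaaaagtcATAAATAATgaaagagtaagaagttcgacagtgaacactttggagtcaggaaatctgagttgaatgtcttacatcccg
Rnf121 start site, chr7:109213673-109213758: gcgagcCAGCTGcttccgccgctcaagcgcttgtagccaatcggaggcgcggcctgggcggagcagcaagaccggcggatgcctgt
Psmc2 exon site, chr5:21292507-21292602: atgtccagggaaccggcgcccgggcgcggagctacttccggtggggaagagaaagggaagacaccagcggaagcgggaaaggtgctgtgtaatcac

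Binding differed widely among the 8 genes. Atp2b2 had summits in 8 of the 9 lists and 36 in all, in a window of 397 kb. Calb2, Pvalb, Ocm and Chrna10 had 12, 13, 12 and 12 summits in windows of 105 to 131 kb, Slc26a5 had 8, Calb1 had 3 and Chrna9 had 2. Every member had at least 1 summit in the iG+P Pou4f3 list, and 7 of 8, all but Calb1, had at least 1 in the iGPA Atoh1 list. Gfi1 had a summit near Calb2 and Slc26a5 only.

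**Figure D1:**
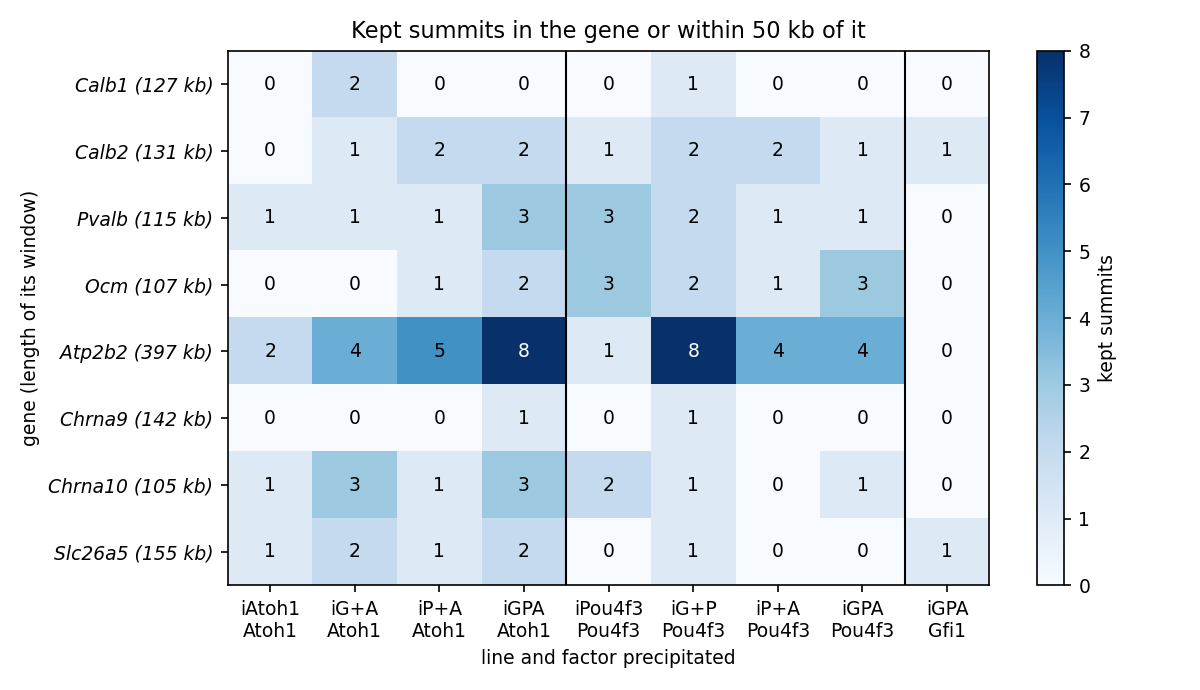
Number of kept summits in each gene's body or within 50 kb of it, for each of the 9 lists (columns, by line and factor precipitated) and the 8 genes (rows, with the length of the window in kb). The counts run from 0 to 8, with the highest for Atp2b2 in the iGPA Atoh1 and iG+P Pou4f3 lists.

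These counts have to be read against all genes. A kept summit lay in the body or within 50 kb of 46.6% of annotated genes for iAtoh1 Atoh1, 58% for iG+A Atoh1, 55.4% for iP+A Atoh1 and 64.4% for iGPA Atoh1. The members' counts were 4, 6, 6 and 7 of 8. For Pou4f3 the share of all genes was highest in iG+P (70.9%), followed by iPou4f3 (65.7%), iGPA (57.5%) and iP+A (53.4%), and the members' counts in that order were 8, 5, 5 and 4 of 8. For Gfi1 the share was 20.1% and the members' count 2 of 8. With 8 genes the exact 95% intervals were wide (for iGPA Atoh1, 47.3% to 99.7%), and in all 9 lists they included the share of all genes. The members' windows were longer than usual, with a median of 129 kb against 105 kb for all genes.

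**Figure D2:**
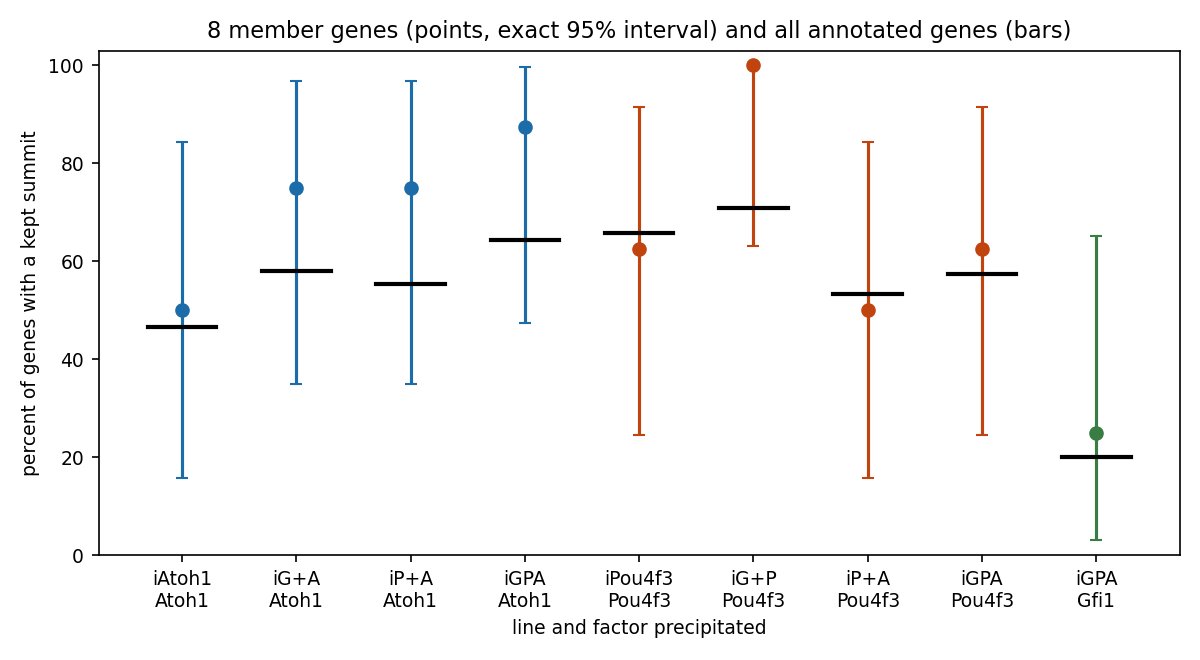
Percent of genes with a kept summit in the body or within 50 kb, for each list on the x axis. Points are the 8 genes with the exact 95% interval, and black bars are all annotated genes. Each interval includes the black bar of its list.

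Summit density gave a similar picture. The member windows held 5 summits in the iAtoh1 Atoh1 list, where the density over the windows of all genes would give 9.47. For iG+A, iP+A and iGPA Atoh1 the counts were 13, 11 and 21, against 12.6, 11.4 and 16.0 at that density. The Pou4f3 counts of 18, 10, 10 and 8 (iG+P, iPou4f3, iGPA, iP+A) stood against 19.0, 13.2, 10.5 and 9.89, and the 2 Gfi1 summits against 1.86. The density over all gene windows lay within the exact Poisson interval of the members' density in every list. What follows concerns where the summits lay and in which lines.

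Among the calcium buffers, Calb1 had the fewest summits. Atoh1 was found 35 bp inside its start, in its 5′ UTR, with a fold enrichment of 3.07 (95% counting interval 1.97 to 4.58), and 5.28 kb past its end, with 3.87 (2.62 to 5.54). Both were in iG+A and in no other list. Pou4f3 was found in an intron of Calb1, 22.3 kb from the start, in iG+P only, with 3.39 (2.32 to 4.80). Fold enrichment is the number of ChIP fragments over the local background, each with 1 added, and the median over all kept summits was 3.20 in the iG+A list and 2.96 in the iG+P list. Between 28.6% and 67.4% of the kept summits of these lists had at least the folds of the 3 Calb1 sites, and none of the 3 was seen in more than 1 line. The same presence and absence in the 9 lists was found for 136 other genes.

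Calb2 had no summit in its body. The strongest site of its window lay 1.73 kb past the end of the gene, with 32.4 kb to the nearest annotated start, that of Calb2 itself. Atoh1 was bound there in iP+A with a fold enrichment of 6.24 (4.75 to 8.05) and in iGPA with 9.23 (7.27 to 11.6). Pou4f3 was bound in the same lines, with 4.87 (3.54 to 6.54) in iP+A and 3.50 (2.27 to 5.17) in iGPA, and Gfi1 in iGPA with 5.94 (3.95 to 8.60). Neither iAtoh1, iG+A, iPou4f3 nor iG+P had a summit at the site. It was therefore found in both lines that expressed Atoh1 with Pou4f3 and in none that expressed only 1 of that pair. The Atoh1 value in iGPA was among the highest 4.86% of its list. The Pou4f3 value in iGPA was in the lower part of its list, where 73.9% of kept summits had at least that fold.

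The enrichment at this Calb2 site, as fragments over background, was 1.51 times as high for Atoh1 in iGPA as in iP+A (1.06 to 2.17), against a median of 1.28 over the 10904 sites the 2 lists shared. For Pou4f3 the ratio was 0.731 (0.420 to 1.24), with an interval below the median of 1.59 over 9176 shared sites. In iP+A the Atoh1 and Pou4f3 summits were at the same base, and in iGPA they were 70 bp apart, against a median of 37 bp over the 4081 sites that carried both in iGPA. The E-box core CATCTG, the reverse complement of CAGATG, began 8 bp before the strongest summit. A Pou4f pattern was also found within the 250 bp around it.

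Other sites in the Calb2 window were nearer to other features. At the start of Ftsjd1, 49.8 kb upstream of Calb2, Atoh1 was found in all 4 lines, and the fold enrichment was highest in iGPA (4.92), followed by iG+A (3.74), iP+A (3.23) and iAtoh1 (2.44). The iAtoh1 summit was 50019 bp from Calb2, just outside the window, and was not counted. Pou4f3 was found at that start in iG+P with 2.85. A further Pou4f3 summit lay in an intron of Gm17720 in iG+P only, with 2.74 (1.79 to 4.02).

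A site 813 bp past the end of Calb2 carried Pou4f3 in iPou4f3, with 3.81 (2.91 to 4.91), and in iP+A, with 3.81 (2.95 to 4.83). It stood apart from the other sites in its sequence. The best match of the 100 bp around the summit to itself, shifted by 1 to 12 bp, was 96.6%, while 40 of the 42 sites had values from 29.7% to 51.1%. The local background was 14.5 and 16.3 fragments, against a usual 7.41 and 7.83 in these lists. In 6 further lists a peak was called here and not kept. The part of the repeat and the background in these calls was not tested.

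Pvalb had a strong distal site and an intronic site, with different lines at each. The distal site was 34.1 kb upstream of Pvalb and 4.25 kb from the start of Ncf4, a neutrophil oxidase gene. Pou4f3 was bound there in all 4 lines, with 10.9 (8.61 to 13.7) in iGPA, 6.42 (4.84 to 8.36) in iPou4f3, 6.23 (4.71 to 8.09) in iP+A and 6.13 (4.64 to 7.95) in iG+P. Atoh1 was bound in iP+A with 4.73 (3.46 to 6.34) and in iGPA with 4.06 (2.82 to 5.68), and had no summit in iAtoh1 or iG+A. The iGPA value for Pou4f3 stood above the other 3, which were close together. The ratio of iGPA to iPou4f3 was 1.76 (1.22 to 2.56), just above the median of 1.22 over 11054 shared sites. The ratios to iG+P, 1.87 (1.30 to 2.70), and to iP+A, 1.83 (1.27 to 2.65), had intervals that included the medians of 1.32 and 1.59. The Atoh1 summits lay 120 bp (iP+A) and 112 bp (iGPA) from the Pou4f3 summits, farther than the medians of 51 and 37 bp over all sites with both. The Pou4f pattern ATAAATTAT began 9 bp before the strongest Pou4f3 summit. An E-box core was also found within the 250 bp around that summit, outside the sequence shown, which ends before the Atoh1 summits.

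The intronic Pvalb site was 935 bp inside the gene and carried Atoh1 without Pou4f3. The fold enrichment was 4.92 (3.54 to 6.68) in iGPA, 3.34 (2.19 to 4.90) in iG+A and 2.93 (1.90 to 4.34) in iAtoh1, and iP+A had no summit. The intervals of the 3 lines overlapped. CAGCTG occurred 14 bp before and 32 bp after the strongest summit. Pou4f3 alone was found 9.56 kb upstream of Pvalb in iPou4f3 (2.97) and iG+P (3.17), at a site that held ATAATTAAT without mismatch. The remaining 2 summits, Atoh1 at 4.34 kb inside the gene in iGPA and Pou4f3 at 33.3 kb upstream in iPou4f3, had 2.83 and 2.50.

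Ocm had no summit in its body and a strong site 5.92 kb upstream of its start, which was the nearest start. Pou4f3 was bound in all 4 lines. The fold enrichment was 10.9 (8.61 to 13.7) in iGPA, 8.54 (6.76 to 10.6) in iG+P, 7.25 (5.56 to 9.30) in iPou4f3 and 5.32 (3.93 to 7.06) in iP+A. In each list 7.48% or fewer of the kept summits had at least that fold. Atoh1 was bound in iP+A, with 3.55 (2.46 to 4.97), and in iGPA, with 7.63 (5.87 to 9.77), and had no summit in iAtoh1 or iG+A. Ocm, Pvalb and Calb2 thus each had a site where Atoh1 was found with Pou4f3 and not without it, but at the Calb2 site Pou4f3 too was found only with Atoh1.

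The Atoh1 enrichment at the Ocm site was 2.22 times as high in iGPA as in iP+A (1.42 to 3.52), above the median of 1.28 over shared sites. The Pou4f3 enrichment rose by a similar ratio, 2.15 (1.47 to 3.17), but the median for that pair of lists was 1.59 and lay inside the interval. The summits of the 2 factors were 30 bp apart in iP+A and 34 bp apart in iGPA. The E-box core CAGCTG began 21 bp after the strongest summit, and the Pou4f pattern with up to 1 mismatch was not found within the 250 bp.

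Weaker Ocm sites carried mostly Pou4f3. A site 25.1 kb upstream, with ATAATTAAT and an E-box core, had Pou4f3 in iPou4f3 (3.45), iG+P (3.50) and iGPA (3.79). A site 6.46 kb upstream had it in iGPA only (2.91). The coding exon of Ccz1 near its start had Pou4f3 in iPou4f3 (2.53), and an intron of Rsph10b2 had Atoh1 in iGPA (2.58), each in that list alone.

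**Figure D3:**
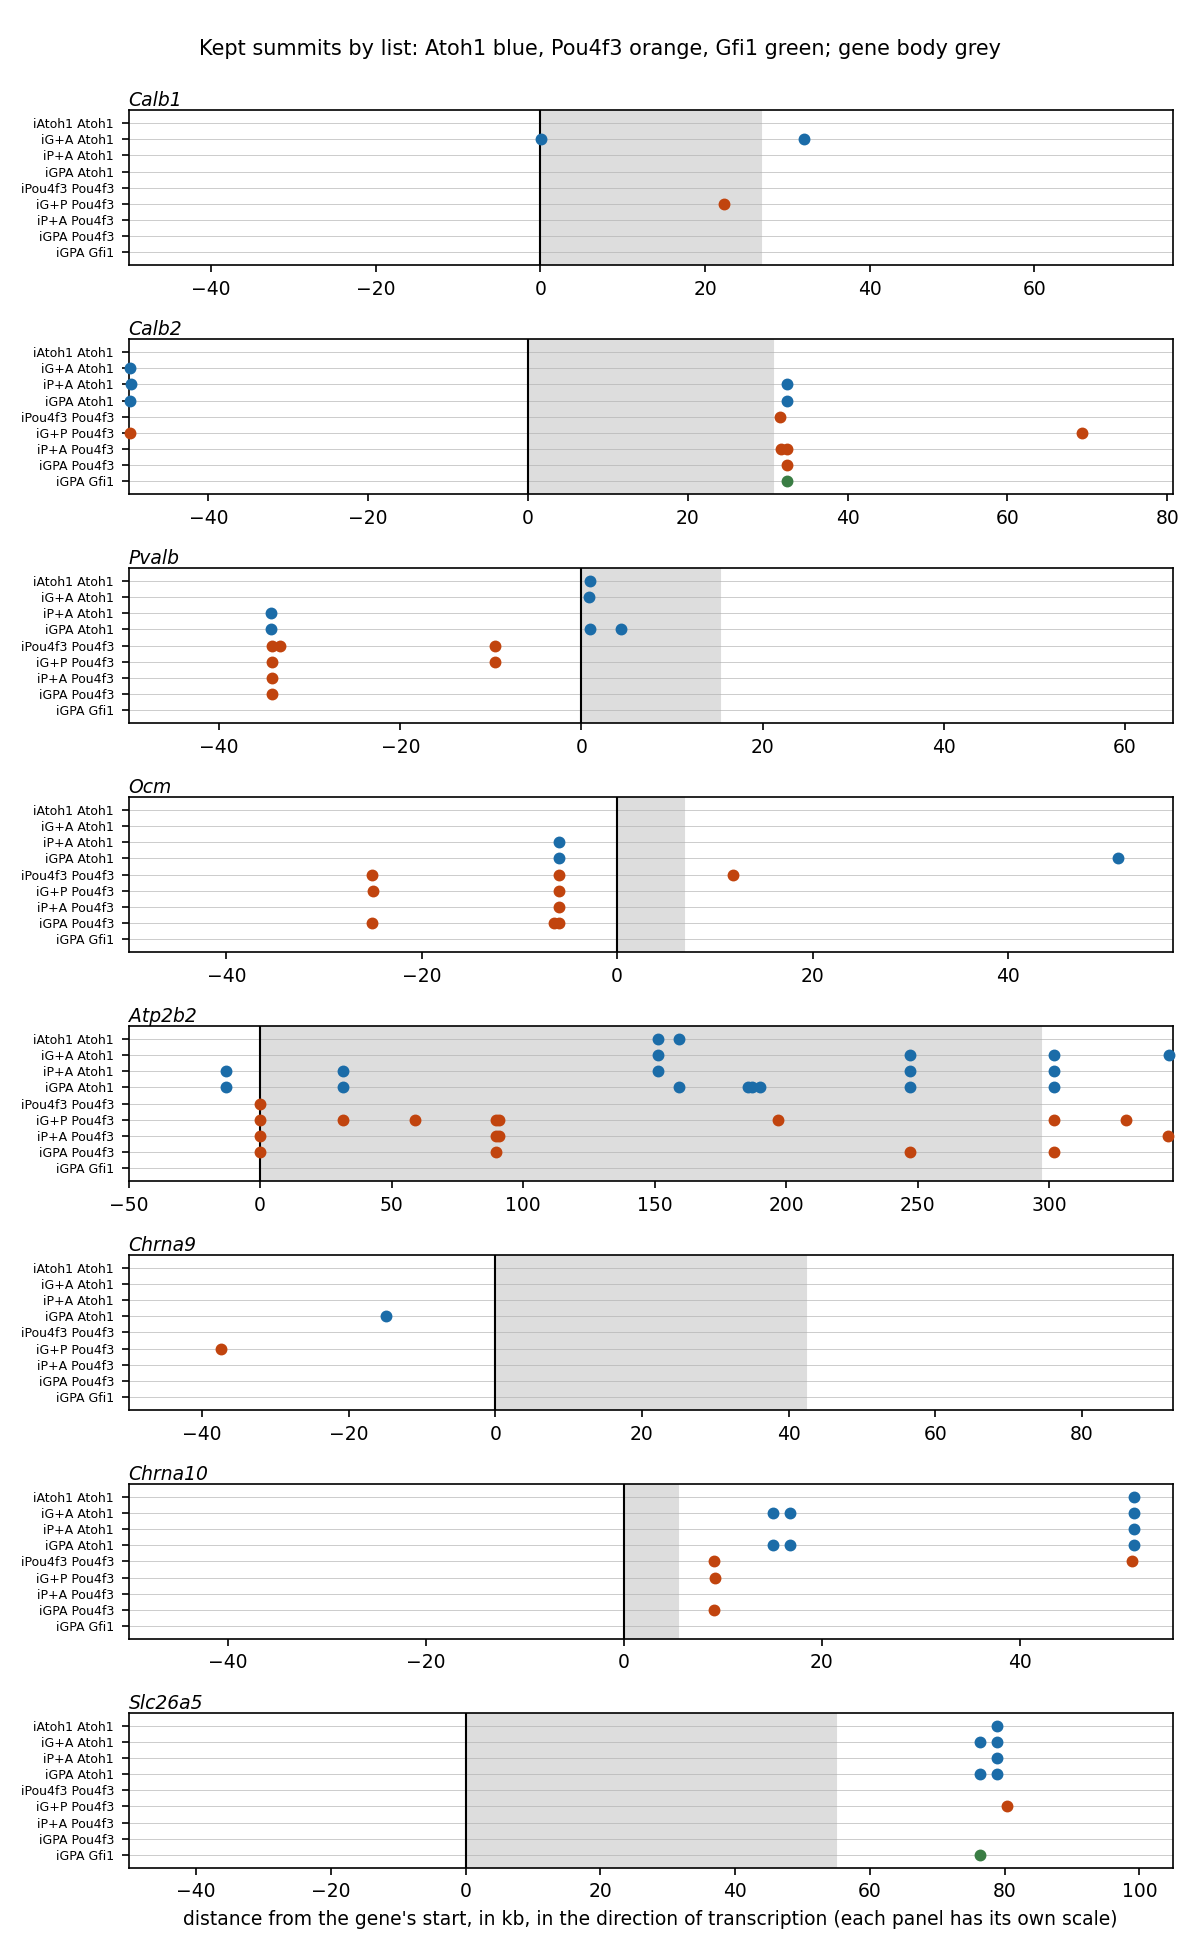
Position of each kept summit relative to the gene's start, in kb along the direction of transcription (x axis, with its own scale in each panel), for the 9 lists (y axis). The gene body is grey, and Atoh1, Pou4f3 and Gfi1 summits are blue, orange and green. Summits of several lists line up at the sites 5.92 kb upstream of Ocm, 34.1 kb upstream of Pvalb, just past the end of Calb2 and at the start of Atp2b2, while Chrna9 has 2 lone summits.

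Atp2b2, the pump gene, had 16 sites, of which 11 were in its body. The strongest lay 88 bp upstream of its start and carried Pou4f3 only. The fold enrichment was 10.2 (7.96 to 12.9) in iGPA, 8.54 (6.76 to 10.6) in iG+P, 7.84 (6.08 to 9.97) in iPou4f3 and 4.98 (3.64 to 6.67) in iP+A. No Atoh1 list and not the Gfi1 list had a summit there. The iP+A value was the lowest, and its ratio to iG+P was 0.580 (0.390 to 0.853), below the median of 0.885 over 11252 shared sites. Its ratio to iPou4f3 was 0.626 (0.416 to 0.934) and that of iGPA to it 2.14 (1.44 to 3.21), and these intervals included the medians of 0.808 and 1.59. The sequence held ATTAATCAT, 1 mismatch from the Pou4f pattern on the other strand, 12 bp before the summit. It was the only member gene with a summit of all 4 Pou4f3 lists within 1 kb of its own start.

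Pou4f3 was also bound at a pair of sites about 90 kb into Atp2b2. The first, 89.7 kb from the start, had 5.39 in iGPA, 3.83 in iG+P and 3.28 in iP+A. The second, 90.7 kb from the start, had 4.16 in iG+P and 2.72 in iP+A. Neither had a summit in iPou4f3, where the start site was the gene's only Pou4f3 summit.

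Atoh1 was bound at other positions of Atp2b2. At an internal start of the gene, 151 kb from the first, it was found in iAtoh1 (3.05), iG+A (3.34) and iP+A (2.90) and not in iGPA. This was the only member site with Atoh1 in iAtoh1 and not in iGPA. At 7.90 kb from that internal start it was found in iAtoh1 (2.93) and iGPA (5.05), with a ratio of 1.75 (1.02 to 3.07) and the median of 1.26 inside the interval. At 3 further intronic sites Atoh1 was found in iGPA only, with 2.95, 3.45 and 3.08.

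In 2 places in the Atp2b2 window Atoh1 was found in iP+A and iGPA and in neither iAtoh1 nor iG+A. The first was 12.9 kb upstream of the start, with 2.58 in iP+A and 3.20 in iGPA and no Pou4f3. The second was 31.4 kb into the gene, with 3.12 in iP+A, 2.46 in iGPA and a Pou4f3 summit in iG+P (3.17). Unlike at Calb2, Ocm and Pvalb, Pou4f3 had no summit there in the lines that gave the Atoh1 summits.

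Atoh1 and Pou4f3 were both bound in iGPA at 2 Atp2b2 sites. At the intron site 247 kb into the gene, Atoh1 had 3.69 in iGPA, 3.07 in iG+A and 2.80 in iP+A, and Pou4f3 had 2.91 in iGPA. At the start of Sec13, a nuclear pore and vesicle coat gene 4.92 kb past the end of Atp2b2, Atoh1 had 3.32, 3.74 and 2.80 in the same lines, and Pou4f3 had 2.41 in iG+P and 4.37 in iGPA. Between 32.2% and 98.3% of the kept summits of a list had at least these folds, and the intervals of the Atoh1 values overlapped at both sites. The remaining Atp2b2 summits were Pou4f3 in iG+P at 3 places (2.63 to 2.85) and, at the start of Tatdn2, Atoh1 in iG+A (3.07) and Pou4f3 in iP+A (3.28). The iG+P summit 197 kb into the gene lay in sequence that matched itself at 100% when shifted.

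**Figure D4:**
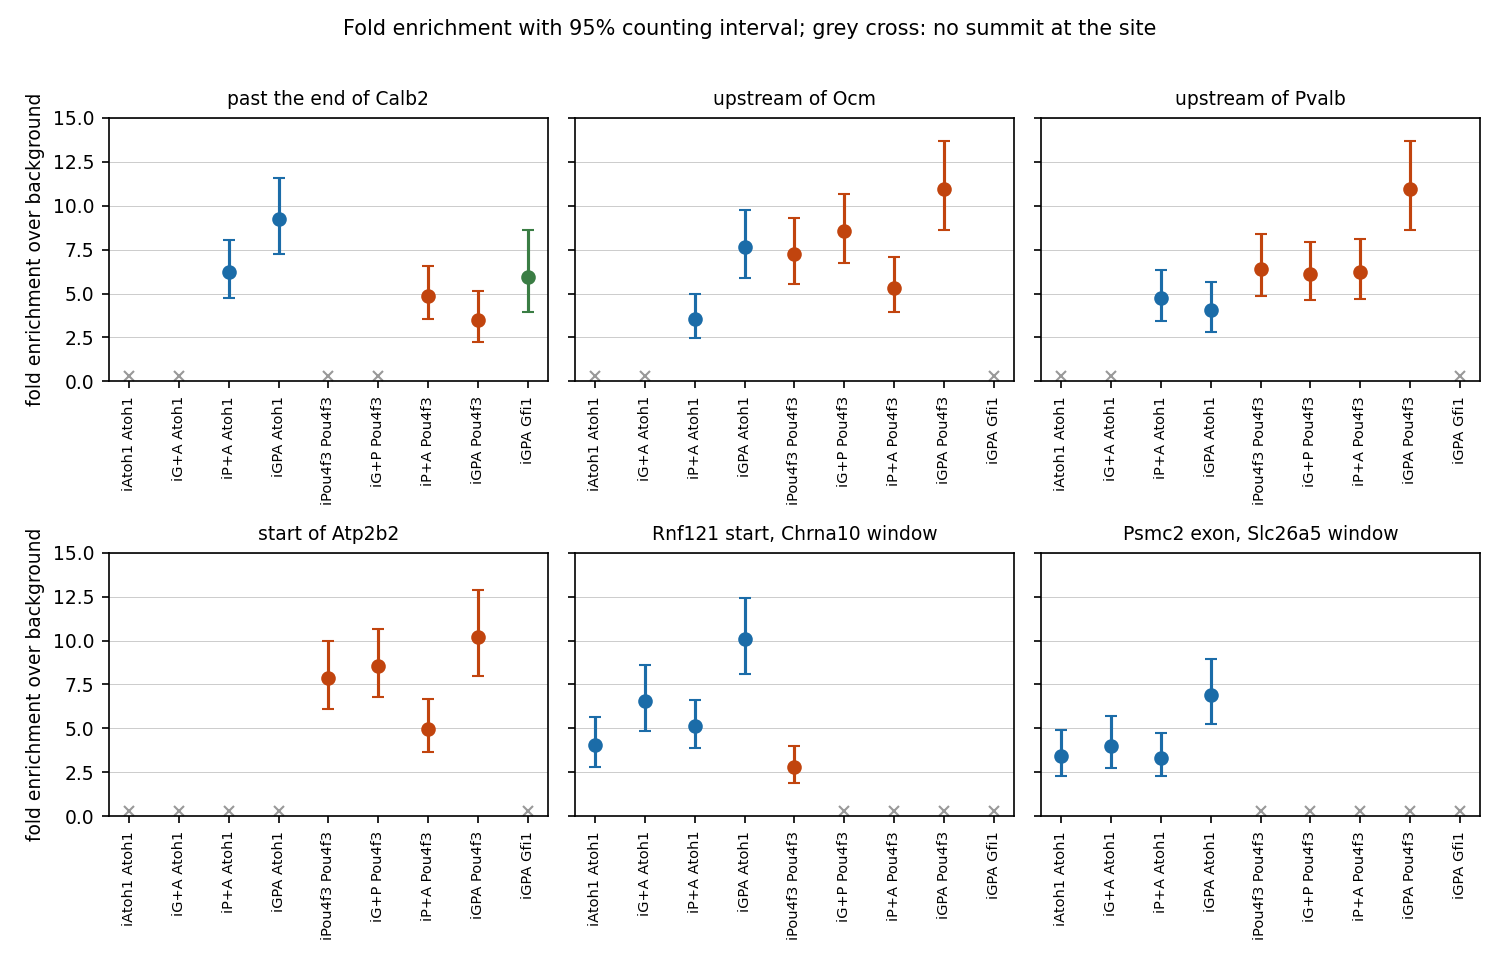
Fold enrichment over background (y axis) in each of the 9 lists (x axis) at 6 sites, with the exact 95% Poisson interval of the fragment count, for Atoh1 (blue), Pou4f3 (orange) and Gfi1 (green). A grey cross marks a list with no summit at the site. Atoh1 is absent from iAtoh1 and iG+A at the first 3 sites, absent from all lists at the Atp2b2 start and present in all 4 lines at the last 2 sites, which lie at neighbouring genes.

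The 2 receptor genes differed from each other. Chrna9 had 2 summits, none in its body. Pou4f3 was found 37.4 kb upstream in iG+P, with 3.28 (2.24 to 4.67), at a site with the Pou4f pattern ATAAATAAT 3 bp before the summit. Atoh1 was found 14.9 kb upstream in iGPA, with 2.71 (1.72 to 4.07), a fold that 92.9% of the kept summits of the list reached. Each was in 1 list only, and 102 other genes had summits in the same lists and no others.

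Chrna10 had no summit in its body either, and its 12 summits lay on the side of its neighbours downstream. The strongest site was at the start of Rnf121, 46.1 kb past the end of Chrna10 and near the divergent start of Trpc2. Atoh1 was bound there in all 4 lines, with 10.1 (8.11 to 12.4) in iGPA, 6.54 (4.86 to 8.63) in iG+A, 5.13 (3.89 to 6.63) in iP+A and 4.03 (2.80 to 5.64) in iAtoh1. The iGPA value stood above the others. Its ratio was 2.53 to iAtoh1 (1.67 to 3.93) and 2.04 to iP+A (1.44 to 2.90), above the medians of 1.26 and 1.28 over shared sites. The ratio to iG+A was 1.52 (1.06 to 2.22), an interval that included the median of 1.14. Pou4f3 was found at this site in iPou4f3 only, with 2.82.

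Nearer to Chrna10, Pou4f3 was bound 3.72 kb past its end, in an intron of Art1, with 3.57 in iPou4f3, 3.17 in iG+P and 4.81 in iGPA. Atoh1 was bound at 2 sites at the starts of Art5 and Art1, ADP-ribosyltransferase genes, in iG+A and iGPA and in neither iAtoh1 nor iP+A. The values were 4.41 and 3.57 at the first, 11.3 kb past the end of Chrna10, and 3.20 and 4.18 at the second, 9.59 kb past it. Both lines with these Atoh1 summits expressed Gfi1, but the Gfi1 list, which came from iGPA, had no summit in the Chrna10 window.

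Slc26a5 had no summit in its body or upstream of it. Its 8 summits lay 21.4 kb or more past its end, all within or at the start of Psmc2, a proteasome subunit gene. In a coding exon of Psmc2, Atoh1 was bound in all 4 lines, with 6.89 (5.22 to 8.93) in iGPA, 4.01 (2.73 to 5.69) in iG+A, 3.42 (2.30 to 4.92) in iAtoh1 and 3.33 (2.28 to 4.71) in iP+A. As at Rnf121, the iGPA value was highest, with a ratio of 2.05 to iAtoh1 (1.27 to 3.39) and 2.13 to iP+A (1.34 to 3.45), above the medians for all shared sites. The ratio to iG+A was 1.73 (1.08 to 2.81), and the median of 1.14 lay inside this interval too. In an intron of Psmc2, Atoh1 was bound in iG+A (3.34) and iGPA (4.43) and Gfi1 in iGPA with 5.28 (3.43 to 7.81). Pou4f3 was found at the start of Psmc2 in iG+P only, with 2.41. The prestin gene thus had summits of the 3 factors in its window but none nearer to its own start than to that of Psmc2. Summits in the same set of lists were found for 72 other genes.

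Across the 42 sites, 16 carried Atoh1 and no Pou4f3, 17 carried Pou4f3 and no Atoh1, and 9 (21.4%, 10.3% to 36.8%) carried both in some list, against 18.2% of all sites. Of the 42, 18 (42.9%) were in 1 list only, against 46.9% of all sites. The nearest annotated start was that of the member at 18 sites and that of another gene at 24. Sites within 1 kb of any annotated start made up 31.0% of the member sites and 21.2% of all sites. These shares are not like for like, because member sites were chosen to lie in or within 50 kb of a gene. The sites of the whole genome were not.

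The comparison of iGPA with iAtoh1 was uneven. Of the 21 member sites with Atoh1 in iGPA, 5 also had it in iAtoh1 and 16 did not, while 1 of the 6 iAtoh1 sites lacked it in iGPA. Over the genome, 8161 of 25541 iGPA Atoh1 sites were shared with iAtoh1, and 6864 of 15025 iAtoh1 sites were not in iGPA. The iGPA list was the longer, and with each Atoh1 and Pou4f3 list reduced to the 15568 summits of the shortest of them, by −log10 p, 8 member sites with Atoh1 in iGPA and not in iAtoh1 were left. Atp2b2 alone accounted for 7 of the 16.

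Atoh1 in both lines with Pou4f3 and in neither without it was found at 5 sites (11.9%, 3.98% to 25.6%), near Calb2, Pvalb, Ocm and Atp2b2, against 4.52% of all sites and 19.9% of all genes. At 3 of the 5, those of Calb2, Pvalb and Ocm, Pou4f3 was bound in the same 2 lines. Such sites were 7.14% of the member sites (1.50% to 19.5%) and 1.50% of all sites, and 3 of 8 members (37.5%, 8.52% to 75.5%) had 1, against 6.57% of all genes. All 3 are EF-hand buffers, of which Calb1 was the only member gene without such a site. The share of all genes includes non-coding genes and shorter windows, with a median of 105 kb against 129 kb for the members. This class of site was 1 of several examined, and whether buffer genes differ from other genes was not tested. It was not recounted under the alternative settings. The iGPA Pou4f3 summit of the Calb2 site had a −log10 p of 7.78, below the alternative minimum of 10. The iP+A Atoh1 summit of the Ocm site had 10.1, just above it. The corresponding pattern for Gfi1, Atoh1 in iG+A and iGPA and in neither iAtoh1 nor iP+A, was found at 3 sites (7.14%), 2 near Chrna10 and 1 in Psmc2, against 3.83% of all sites.

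Sites with both Atoh1 and Pou4f3 in iGPA were found near 4 of 8 members (Calb2, Pvalb, Ocm and Atp2b2), against 21.6% of all genes. Pou4f3 was found in all 4 lines near Pvalb, Ocm and Atp2b2, 3 of 8 members against 32.1% of all genes. Atoh1 in all 4 lines was found near Calb2, Chrna10 and Slc26a5, 3 of 8 against 27.2%, each time at a neighbour (Ftsjd1, Rnf121 and Psmc2).

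At the 23 member sites shared by at least 2 lists of the same factor, 71 ratios between lists could be formed. In 22 the interval left out 1, and in 8 it left out the median ratio of all sites shared by the same lists. The ratios were not independent, because 1 summit could enter several of them. The share of all shared sites with such intervals is not given, so the counts do not show whether the members were unusual. Of those 22, 19 were higher in the list named second, which was iGPA in 18 of them. Lists were paired in a fixed order, and iGPA was named second in every pair it entered. The median ratio over all shared sites was above 1 in each of these pairs, from 1.14 to 1.59. In 15 of the 22 the interval included the median of its own pair of lists, so that the ratio was within counting error of the general ratio of the lists.

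The E-box core was found within 250 bp at 22 of the 42 sites (52.4%), against 47.8% of all sites and 31.4% of windows 1000 bp away. It was at 14 of the 16 sites with Atoh1 and no Pou4f3, against 72.6% of all such sites. The Pou4f pattern was at 9 of 42 sites (21.4%), against 24.8% of all sites and 9.44% of the windows away. It was at 7 of the 17 sites with Pou4f3 and no Atoh1 (41.2%, against 47.0%) and at none of the 16 with Atoh1 and no Pou4f3 (4.90%). The Gfi1 pattern was at none of the 42 sites, against 0.744% of all sites. By list, the E-box core was near 17 of 21 iGPA Atoh1 summits (81.0%, 58.1% to 94.6%), against 75.2% of that list, and the Pou4f pattern near 5 of 10 iGPA Pou4f3 summits (50%, 18.7% to 81.3%), against 54.5%.

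Among 18 annotated calcium-handling genes of a related list, 17 had a summit in some list, and S100g had none. The share of all annotated genes with a summit in some list was 86.8%. Calm3, which encodes calmodulin, had summits in all 9 lists, 34 in all. All 16 genes of the nicotinic receptor and efferent synapse list had summits. Chrnb1, a muscle β subunit, had 35 summits in 9 lists, and Chrnb4, a ganglionic β subunit, had 23 in 8 lists and the highest fold enrichment of the genes with 8 lists. In the iGPA Atoh1 list the 3 related lists had 16 of 18, 16 of 16 and 9 of 10 genes with a summit. The share was 64.4% of all genes and 72.2% of protein-coding genes. Some listed genes are neighbours that share summits, such as Chrnd and Chrng, so they do not count independently. All 10 other Slc26 genes had a summit in some list. Slc26a2 had summits in 8 lists and Slc26a10 in 7, as did Slc26a1. The median number of lists per gene was 7 for calcium handling, 7.5 for the nicotinic list and 5.5 for the Slc26 family, against 5 for all annotated genes. Chrna9, with 2 lists, was below every gene of the nicotinic list, whose lowest had 4.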

How the data were processed

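Peak lists of 9 combinations of line and antibody were analysed, with groups taken from the sample titles. According to the methods of the study, reads were trimmed by the authors with Trimmomatic. They aligned them to mm9 with Bowtie2, removed duplicates with Picard, and called peaks with MACS2 on merged ChIP libraries against merged inputs, so that no list has values per replicate. The deposited fold enrichment of a peak is a ratio of ChIP fragments to local background, and the deposited −log10 p and −log10 q are those of the caller. The deposited summit lists hold the peaks the authors kept, by a filter not given in the sources used here. It removed 14.1% to 35.5% of called peaks. Versions and total read counts were not given in the sources used here.

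Fragment numbers and background were recovered from fold and −log10 p (tolerance 0.001) for 98.5% to 99.9% of peaks and gave exact Poisson 95% intervals. Ratios between lists have exact binomial (Clopper-Pearson) intervals, conditional on the sum of both fragment counts, with the background taken as known. Sites were 300 bp windows joined where they shared 1 bp. The genome and the GENCODE annotation were of mm9. The scripts were tested on simulated data and used Python 3.11.15, pandas 2.3.3, numpy 2.4.6, scipy 1.17.1 and pysam 0.24.0. All members were described, and of the related lists the 2 genes with summits in most lists were named, except 1 that is not reported here. Members and lists were chosen with earlier results of these data known. Alternatives were other windows, peak thresholds, list lengths, site widths, patterns and sets of members.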

Additional observations from a re-analysis of the deposited data

Results flagged for a closer look

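Peaks that the authors called and did not keep were outside the results above, and 11 of them had their summit in the member windows with more than 3 fragments. Of the 11, 6 lay together 915 to 948 bp past the end of Calb2, within the kept Pou4f3 site there. The match of that sequence to itself was measured around the strongest kept summit, 813 bp past the end, and not around these 6. The highest was Atoh1 in iAtoh1, with a fold enrichment of 7.04 (95% counting interval 5.40 to 9.03) over a local background of 7.66 fragments. Atoh1 in iG+A had 4.72 (3.58 to 6.12), Pou4f3 in iG+P 3.63, Atoh1 in iP+A 2.85, Atoh1 in iGPA 2.61 and Pou4f3 in iGPA 2.44. With the 2 kept Pou4f3 summits, a peak was called at this place in every Atoh1 and Pou4f3 list. The background was 10.9 to 22.4 fragments in the other 5 lists, and its part in the order of the values was not tested.

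The other 5 were weak and lay at single places. Pou4f3 in iPou4f3 was called and not kept at the start of Ftsjd1 in the Calb2 window (3.03), 16.4 kb past the end of Pvalb (2.52), in the Atp2b2 window near the start of Tatdn2 (2.51) and in Psmc2 in the Slc26a5 window (2.66). Atoh1 in iG+A was called and not kept 39.0 kb past the end of Slc26a5 (2.67). None of the 11 lay at the sites of Calb2, Ocm and Pvalb where Atoh1 was found with Pou4f3 and not without it.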

How the results depend on the processing

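The counts depended most on how much sequence was assigned to a gene and on the peak threshold. The lists are given in the order iAtoh1, iG+A, iP+A and iGPA for Atoh1, then iPou4f3, iG+P, iP+A and iGPA for Pou4f3. With 10 kb to each side the summits fell to 3, 7, 6 and 12 for Atoh1, to 6 and 11 in iPou4f3 and iG+P and to 1 for Gfi1. The sites fell from 42 to 26, and those with Atoh1 in iGPA and not in iAtoh1 from 16 to 10. With 100 kb they rose to 9 and 20 (iAtoh1 and iG+A) and to 18, 28 and 16 (iPou4f3, iG+P and iGPA Pou4f3), with 66 sites. In gene bodies alone the Atoh1 lists had 3, 4, 3 and 8, the Pou4f3 lists 0, 6, 2 and 2 and Gfi1 0, with 15 sites, 6 of them in iGPA and not in iAtoh1 and 1 with Atoh1 and Pou4f3 in iGPA, against 5 such sites otherwise. Where the nearest start had to be a member's, they were 3, 3, 4 and 10, then 5, 5, 4 and 5, and 1 for Gfi1, with 18, 8 and 2 sites. With −log10 p of at least 10 they were 1, 4, 4 and 10, then 4, 5, 5 and 6, with 18, 9 and 2 sites. At equal list length iGPA Atoh1 had 13, iPou4f3 6 and iG+P Pou4f3 11, with 28, 8 and 3 sites. Without Atp2b2 the lists had 3 in iAtoh1, 6 in iP+A and 13 in iGPA for Atoh1, and, for Pou4f3, 6 in iGPA, 4 in iP+A and 10 in iG+P, with 26, 9 and 3 sites. Without Calb2, and likewise without Slc26a5, Gfi1 had 1. Using all called peaks, or 100 or 1000 bp around summits, left every count within 1.5 times its value, as did leaving out Calb1, Pvalb, Ocm, Chrna9 or Chrna10, an alternative chosen after the data were seen.

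The 10-letter E-box was at 6 sites instead of 22. The Pou4f pattern was at 3 sites with 0 mismatches and at 20 with 2 mismatches, a setting added after the sequences were seen, against 9. The 6-letter core AATCAC was at 4 sites, where the full Gfi1 pattern was at 0. Over protein-coding genes alone the share with a summit was 72.2% for iGPA Atoh1 and 72.8% for iPou4f3 Pou4f3. No paired analysis was possible because the lists were called on merged libraries. Depth limits the absences: a missing summit means that no peak was called and kept, not that the factor was absent, and the shorter lists hold fewer weak sites.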
